A study of Mus musculus with 54 samples.

Results

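Round spermatids (RS) were compared with spermatocytes (SC) in the combined mutant (CM), which carries 1 copy of *Ctcf* and no functional *Boris* (Ctcf+/-Boris-/-). The comparison used the 6 poly(A) RNA-seq libraries whose titles name this genotype, where it is called DKO, and a purified cell type: 3 of CM RS and 3 of CM SC, of 54 samples in the series. The mice were C57BL/6 and 3 months old. The paper pooled 4 mice in each germ cell preparation, but gives no number of mice for each sorted RS or SC library. The p values given here thus measure the spread between these libraries, and cannot be read as a spread between single mice. Controls for the same step were WT (3 RS and 2 SC libraries), CTCF HET (Ctcf+/-, 3 and 3) and BORIS KO (Boris-/-, 3 and 3), all of the same strain and age. The mutant alleles were inherited through the germline, so that the supporting cells of the testis carry them as well as the germ cells. RS and SC were separated by elutriation and then sorted on DNA content with a DNA dye after dead cells had been gated out, so the SC fraction was defined by size and DNA content and not by a substage of meiosis.

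Spermatocytes are the germ cells in meiosis. They pair and recombine their homologous chromosomes along the synaptonemal complex, silence the X and Y in the sex body, and then divide to give haploid round spermatids, which switch on the genes of the acrosome, the flagellum and the sperm nucleus. CTCF is a zinc finger protein that binds DNA in nearly all cells, where it shapes chromatin loops together with cohesin, and BORIS (*Ctcfl*) is its testis paralogue. The comparison therefore follows the transcripts of meiosis and of spermiogenesis across the step from SC to RS in germ cells of this genotype.

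The 6 CM libraries held 63503144 to 82900379 counts, with 14145 to 16670 of 23284 listed genes detected, against 17504 to 18978 detected in the WT and BORIS KO libraries, 18511 to 18752 in CTCF HET RS and 12018 to 13406 in CTCF HET SC. Libraries within a CM group did not resemble each other equally. Across genes, log2 levels of CM RS replicate 2 correlated with the other CM RS libraries at r = 0.932 and 0.949, while those correlated with each other at 0.981 and the 3 CM SC libraries at 0.984 to 0.991. These correlations run over genes within libraries, and genes are not independent replicates. CM RS replicate 2 was more than 2-fold above both other RS libraries in 2824 of 15037 tested genes (460 of the genes called higher in RS), and members that lose their call without it, or whose change moves much, are given both ways below. The SC libraries were uneven too. CM SC replicate 3 was more than 2-fold above both others in 1018 tested genes (374 of those called higher). CM SC replicate 1 was more than 2-fold below both others in 850 (439 of those called higher). The gene list paragraphs below give no values without these SC libraries. Genes at 0 in 1 library but with at least 50 counts in each other library of its group numbered 7, 101 and 110 in CM RS and 0, 37 and 7 in CM SC (0 to 5 in WT and BORIS KO, 0 in CTCF HET RS and 60 to 128 in CTCF HET SC). Of the 3702 genes called below, 4 had such a zero.

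Levels are given as CPM, counts per 1000000 of the TMM-scaled library total over the 23 purified libraries. *Ctcf* (mm9, chromosome 8, 108160468 to 108206822, plus strand) was at 171, 45.5 and 38.4 CPM in the 3 RS libraries labelled CM and at 89.3, 34.8 and 36.4 in the 3 SC libraries, against 48, 30 and 28.4 in WT RS and 36 and 33.6 in WT SC. No library labelled CM was below every WT library of its cell type, so this level did not follow the heterozygous label, and the genotype is used here as the label gives it. *Rltpr*, a neighbour of *Ctcf* on the same strand, separated the genotypes instead: it was at 56.7, 28.6 and 32.4 CPM in CM RS and 75.6, 54.8 and 50 in CM SC, and at 0.582 to 1.71 in WT. In CTCF HET it was at 36.7 to 77.5 and in BORIS KO at 1.58 to 2.94. *Ctcfl* was at 2.54, 1.73 and 1.07 CPM in CM RS, against 2.8, 4.91 and 3.26 in WT RS and 2.06 to 2.38 in BORIS KO RS. The labels do not give the deleted part of either gene, so these gene totals check neither deletion.

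Markers of both labelled cell types were higher in the cell type they name. The summed level of 13 round spermatid markers was 653.7 to 976.9 CPM in CM RS and 48.9 to 159.3 in CM SC, against 1601 to 1749 in WT RS and 47.9 to 48.2 in WT SC. All 13 were called higher in CM RS, beside 14.8% of all genes tested (median log2 change 3.04, with a median of 0.13 over all tested genes). For 11 spermatocyte markers the sum was 3931 to 5682 CPM in CM RS and 7300 to 11506 in CM SC, against 3965 to 4427 in WT RS and 5553 to 6894 in WT SC. Of these markers 8 were called lower in RS, beside 9.82% of all genes tested (median log2 change -1.40 in CM and -1.30 in WT). The change of the round spermatid markers was thus smaller in CM than in WT by its median (3.04 against 5.74), and that of the spermatocyte markers was not. A smaller median for round spermatid markers was not particular to CM: it was 3.65 in CTCF HET and 5.00 in BORIS KO. In CTCF HET these markers summed to 1141 to 1177 CPM in RS and 68.3 to 108.1 in SC, the latter within the CM SC range. 1 spermatocyte marker, *Dmc1*, was called higher and is described with the recombination genes.

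**Figure D1:**
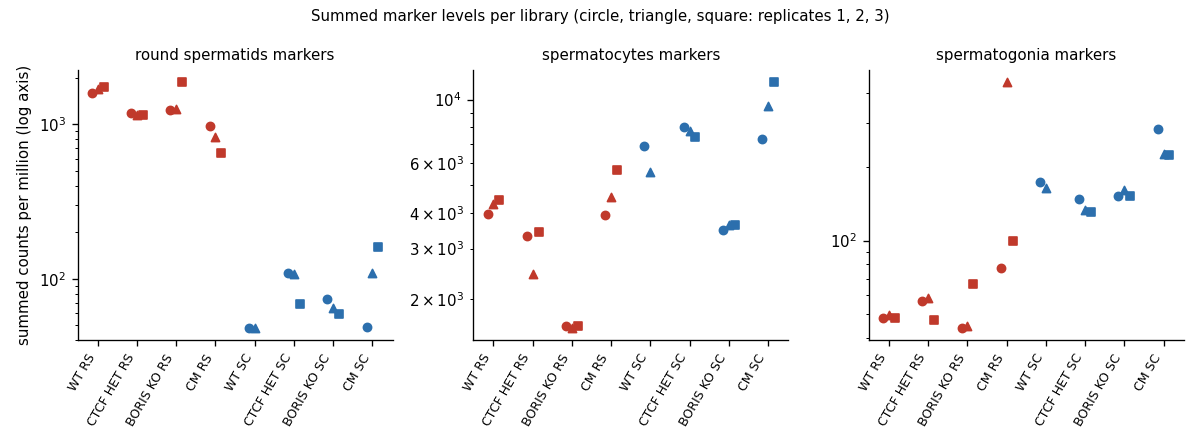
Summed CPM (log axis) of the round spermatid, spermatocyte and spermatogonia markers in each of the 23 purified libraries, by genotype and cell type. RS libraries are red and SC libraries blue. The 3 CM RS libraries lie between 653.7 and 976.9 for round spermatid markers, below the 1601 to 1749 of WT RS, and CM RS replicate 2 reaches 441 for spermatogonia markers.

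Spermatogonia markers summed to 77.7 to 441 CPM in CM RS and 223 to 284 in CM SC. In SC this was mostly *Id4* (262, 201 and 193 CPM). In RS the highest sum belonged to replicate 2, with *Stra8*, a gene of meiotic entry, at 9.55, 206 and 20.4 CPM in the 3 RS libraries, and *Dmrt1* at 13.2, 91.7 and 21.7. Of 16 tested spermatogonia markers 5 (31.25%) were called higher in RS and 1 (6.25%), *Id4*, lower, beside 14.8% and 9.82% of all genes tested. Sertoli cell markers summed to 22.5 to 64.6 CPM in RS and 22.9 to 25.3 in SC with no call among 10 tested (1 higher and 1 lower without replicate 2), and those of peritubular, endothelial and stromal cells to 5.88 to 14.8 and 7.27 to 12.4 with no call among 7. Leydig cell markers summed to 0.968 to 1.77 CPM in RS and 10.7 to 12.5 in SC. Of the 3 tested, *Star* and *Cyp17a1* were called lower, while *Insl3* and *Hsd3b6* were at 0 in all 6 libraries. Macrophage and leukocyte markers summed to 29.0 to 73.1 and 35.0 to 40.4 CPM, where *Aif1* was called higher and *C1qa* and *C1qc* were at 0 throughout. The 5 erythrocyte markers were at 0 in all 6 libraries. In sorted bulk RNA, fewer cells of a type and less RNA per cell cannot be told apart, and the part of other cells in the results below was not tested.

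Of 15037 genes tested, 2225 (14.8%) were called higher in CM RS than in CM SC and 1477 (9.82%) lower, at an adjusted p under 0.05 and a fold change over 2. The 3 RS libraries lay all above or all below the 3 SC libraries for 2215 of the genes called higher and for all 1477 called lower. Without overlap, irrespective of the call, RS was above SC in 3804 genes (25.3%) and below in 3830 (25.5%). Without CM RS replicate 2, 2192 genes (14%) were called higher and 2206 (14.1%) lower of 15628 tested. Of the first calls 1915 higher genes (86.1%) and 1387 lower genes (93.9%) were then called again, and 0 were called in the opposite direction. Without CM SC replicate 1 the calls were 1444 higher and 1053 lower, and without CM SC replicate 3 they were 1759 and 1125. The 6 libraries differed more within groups than those of the other genotypes did: the biological coefficient of variation was 62.3% in CM, 47.3% in CTCF HET, 20.5% in WT and 12.3% in BORIS KO. At an adjusted p under 0.001, 2 genes were called higher and 118 lower.

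The genes with the smallest adjusted p were lower in RS. *Gm5465* (chromosome 14, 79851642 to 79854623) was at 3.28, 3.41 and 3.93 CPM in RS and 152, 138 and 159.9 in SC, a log2 change of -5.32 ± 0.23 (adjusted p = 0.000172). *Rnf6*, a RING finger ubiquitin ligase (chromosome 5, 147020768 to 147033131), was at 27.5, 27.5 and 25.6 CPM in RS and 375, 344 and 322 in SC (-3.61 ± 0.19, adjusted p = 0.000203). In both genes the replicates of a stage differed by far less than the stages. The smallest adjusted p among genes called higher were those of *1700110M21Rik*, *Alg13*, a glycosylation enzyme on the X, and *Ribc1*, a gene of ciliary and flagellar microtubules also on the X. *1700110M21Rik* was at 186, 139 and 91.1 CPM in RS and 7.56, 7.32 and 11.5 in SC (4.06 ± 0.35, adjusted p = 0.000649). *Ribc1* was at 99.5, 60.5 and 101 CPM in RS and 5.91, 9.26 and 10.5 in SC (3.41 ± 0.33, adjusted p = 0.000979).

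Largest among the decreases, in genes with a mean of at least 10 CPM and no overlap, were *4921525O09Rik*, *Pou5f2*, *Zfp389*, *Gm5465*, *Pnmal1*, *Col25a1*, *4930579G24Rik*, *1700104A03Rik*, *Tdrd5* and *1700006A11Rik*, with log2 changes from -5.79 to -4.89. *Pou5f2*, a POU domain transcription factor, was at 1.55, 0.736 and 1.19 CPM in RS and 79.2, 62.6 and 59.6 in SC (-5.78 ± 0.36, adjusted p = 0.000265). Its WT levels were 1.89, 1.89 and 1.41 in RS and 113 and 124 in SC. The 10 largest increases were of another kind: *Wdr44*, *Cnksr2*, *Tex13*, *Atad5*, *Esx1*, *Trap1a*, *Elavl2*, *Smc1a*, *Dkc1* and *Atrx*. All 10 were highest in CM RS replicate 2, and 8 are on the X. *Wdr44* was at 2.93, 57.7 and 10.2 CPM in RS and 0.136, 0.15 and 0 in SC, and its log2 change of 8.02 ± 1.49 (adjusted p = 0.00701) became 6.11 without replicate 2. *Atrx*, a chromatin remodeller, was at 13.2, 167 and 33.4 CPM in RS and 1.59, 2.56 and 2.21 in SC (5.19 ± 0.97, adjusted p = 0.00709; 3.51 without replicate 2). All 10 remained called higher without that library.

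**Figure D2:**
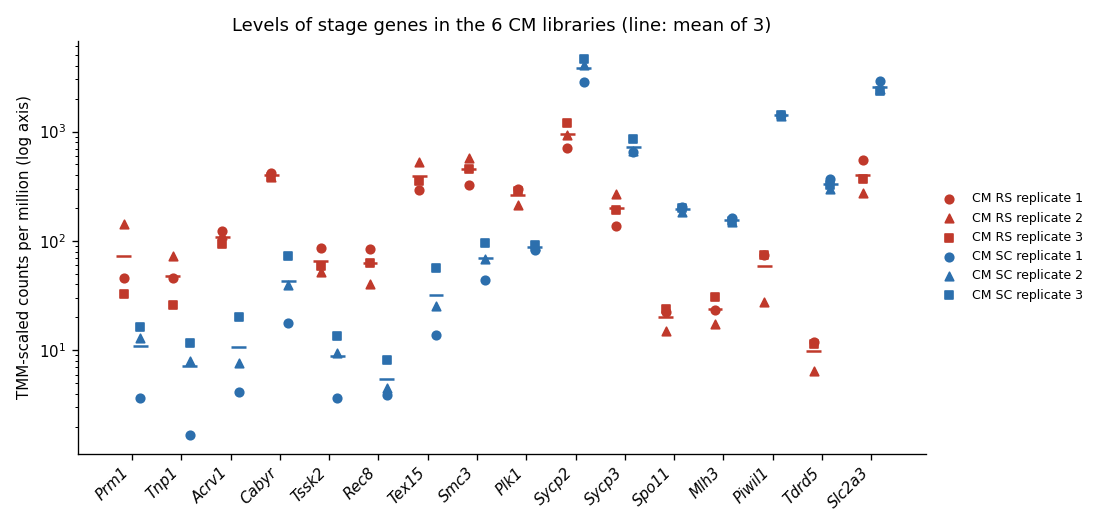
CPM (log axis) of 16 genes of spermiogenesis, cohesin, meiotic division and prophase in the 6 CM libraries, RS in red and SC in blue, with a line at each mean. *Prm1* and *Tnp1* lie closest, with SC up to 16.3 and 11.7 CPM below RS from 32.9 and 25.7, while *Tdrd5* and *Piwil1* are separated by more than a decade.

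Genes that build the synaptonemal complex and the chromosome axis had calls in both directions. Of 14 tested, 4 were called lower in RS, 3 higher and 7 not called (median log2 change -0.41), where 9.82% of all genes tested were called lower and 14.8% higher. *Sycp2*, an axis protein, was at 712, 933 and 1193 CPM in RS and 2828, 4045 and 4574 in SC (-1.93 ± 0.29, adjusted p = 0.00374). Its partner *Sycp3* was at 138, 267 and 191 CPM in RS and 651, 671 and 847 in SC (-1.77 ± 0.30, adjusted p = 0.00468). *Hormad1*, which marks unpaired axes, fell by 1.80 on the log2 scale and *Sycp1*, the central filament, by 1.18, close to the threshold (adjusted p = 0.0493, and 0.0629 without replicate 2). RS kept 138 to 267 CPM of *Sycp3*, so the transcripts were lower in RS but not lost. The members called higher were *Rec8*, *Rad21l* and *Syce2*. *Rec8*, the meiotic kleisin of cohesin, was at 84.5, 40.5 and 63.3 CPM in RS and 3.91, 4.53 and 8.12 in SC (3.57 ± 0.41, adjusted p = 0.00172). *Rad21l*, another meiotic kleisin, was at 2.23, 27.6 and 2.49 CPM in RS and 0.0496, 0 and 0.423 in SC, so its RS mean rests on replicate 2 (log2 change 6.24, and 3.95 with no call without that library). *Syce2*, of the central element, rose by 1.08 and was not called without replicate 2 (0.69, adjusted p = 0.0555). Without replicate 2, 6 members were called lower and 1 higher.

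Of 20 recombination genes tested, 5 (25%) were called lower and 4 (20%) higher (median -0.43), beside 9.82% and 14.8% of all genes tested. The lower members were *Spo11*, which makes the double-strand breaks, the crossover factors *Msh4*, *Mlh3* and *Hfm1*, and *Spata22*, which works with single-strand binding proteins. *Spo11* was at 22.2, 15 and 23.8 CPM in RS and 206, 183 and 200.4 in SC (-3.20 ± 0.23, adjusted p = 0.000395). *Mlh3* was at 23.5, 17.3 and 30.4 CPM in RS and 163, 149 and 153 in SC (-2.64 ± 0.24, adjusted p = 0.000799). *Spata22* was at 2.6, 3.13 and 1.13 CPM in RS and 59.7, 69.6 and 61.8 in SC (-4.71 ± 0.44, adjusted p = 0.000835). These 3 did not overlap between stages, as held for all 1477 genes called lower. *Dmc1*, *Prdm9*, *Tex11* and *Tex15*, which act at the start of recombination or in repair, were called higher in RS. *Dmc1*, the meiotic recombinase, was at 5.61, 43.1 and 4.96 CPM in RS and 0.384, 0.656 and 0.266 in SC (5.47 ± 1.05, adjusted p = 0.00765). *Prdm9*, which places the breaks, was at 7.34, 91.9 and 15.1 CPM in RS and 1.64, 1.72 and 1.77 in SC (4.60 ± 0.96, adjusted p = 0.011). Both were highest in replicate 2, which also had the highest *Stra8* and *Dmrt1*, and the log2 changes without it were 3.64 and 2.77. *Tex11*, on the X, moved likewise (5.00, and 3.40 without it). *Tex15* rested less on that library, at 289, 526 and 357 CPM in RS and 13.9, 25.5 and 56.2 in SC (3.70 ± 0.55, adjusted p = 0.00351). Without replicate 2, 8 members were called lower and 4 higher, and the median was -0.99.

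Of 25 regulators of the meiotic divisions, 5 (20%) were called higher and 5 (20%) lower (median 0.23), beside 14.8% and 9.82% of all genes tested. The phosphatases *Cdc25a* and *Cdc25c*, which activate CDK, the cyclins *Ccnb1* and *Ccna2* and the kinase *Plk1* were higher in RS. *Cdc25a* was at 205, 122 and 183 CPM in RS and 36.8, 35.8 and 42.1 in SC (2.22 ± 0.23, adjusted p = 0.00118). *Plk1* was at 296, 214 and 285 CPM in RS and 82.3, 89.5 and 92.1 in SC (1.66 ± 0.19, adjusted p = 0.00159). The kinases *Cdk1* and *Cdk2*, the CDK subunit *Cks2*, the inhibitory kinase *Pkmyt1* and *Sgol2*, which protects centromeric cohesin, were lower in RS. *Cks2* was at 5.87, 3.54 and 3.87 CPM in RS and 218, 90.6 and 94.8 in SC (-4.85 ± 0.43, adjusted p = 0.000742). *Cdk2*, needed for meiotic prophase, was at 7.39, 17.2 and 9.82 CPM in RS and 113, 79.8 and 81.5 in SC (-2.89 ± 0.38, adjusted p = 0.00253). None of these 4 overlapped between stages, as held for 2215 of the 2225 genes called higher and all 1477 called lower. Without replicate 2 *Ccna2* moved from 2.30 to 1.48, and *Pkmyt1* from -1.39 to -1.22 and out of the calls (adjusted p = 0.0521).

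The piRNA pathway and germ granule genes had calls in 1 direction. Piwi proteins bind piRNAs that silence transposons and act on pachytene transcripts, and Tudor proteins scaffold the granules where this happens. Of 21 tested, 8 were called lower in RS and 0 higher (median -0.76), where 9.82% of all genes tested were called lower. *Piwil1*, the Piwi protein of pachytene cells, was at 74.7, 27.8 and 73.8 CPM in RS and 1430.1, 1399 and 1418 in SC (-4.53 ± 0.39, adjusted p = 0.000649). *Tdrd5* (chromosome 1, 158185426 to 158233795) was at 12, 6.45 and 11.3 CPM in RS and 368, 300.2 and 327 in SC (-5.00 ± 0.28, adjusted p = 0.000203). *Tdrd1* was at 43.3, 50.5 and 42.2 CPM in RS and 596, 612 and 633 in SC (-3.68 ± 0.20, adjusted p = 0.000203). The RS replicates of all 3 lay far under every SC replicate. *Pld6* (-3.58), *Piwil2* (-2.44), *Asz1* (-1.86), *Tdrd9* (-1.34) and *Boll* (-1.21) were the other calls, by log2 change. *Ddx4*, the germ cell helicase (0.01, adjusted p = 0.988), *Mael* (-0.06, 0.911) and *Tdrd6* (-0.28, 0.583) were not called. Without replicate 2 the list had 11 lower and 0 higher calls.

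**Figure D3:**
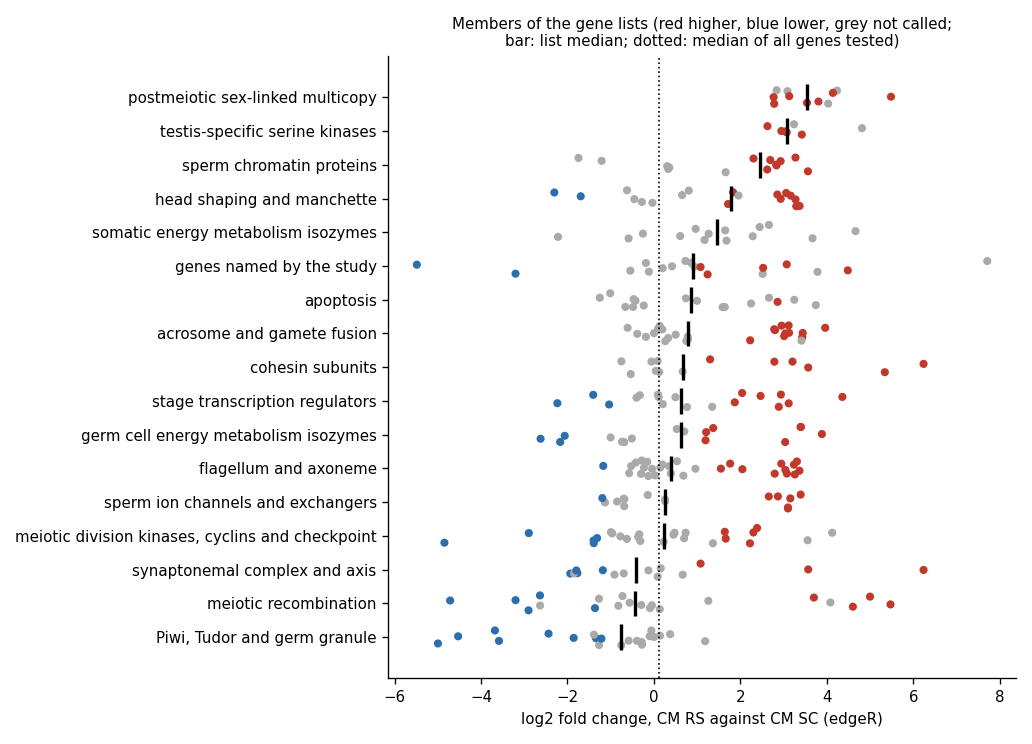
Log2 fold change of CM RS against CM SC for the tested members of 17 gene lists, with red for genes called higher, blue for genes called lower, grey for genes not called, a bar at each list median and a dotted line at the median of all tested genes (0.13). The Piwi, Tudor and germ granule list has its median at -0.76 and no red point, and the testis-specific serine kinases have theirs at 3.07 and no blue point.

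Among 18 transcription regulators of the 2 stages, 7 (38.9%) were called higher and 3 (16.7%) lower in RS (median 0.63), beside 14.8% and 9.82% of all genes tested. *Mybl1*, the pachytene activator, was at 147, 101 and 174 CPM in RS and 342, 395 and 434 in SC (-1.40 ± 0.23, adjusted p = 0.00466). *Tcfl5* and *Zfp42* were the other lower members (-1.04 and -2.23), *Tcfl5* with a change under 2-fold without replicate 2 (-0.86). *Sox5*, an HMG box factor of spermatids, was at 167, 92.5 and 104 CPM in RS and 9.9, 13.9 and 27.4 in SC (2.89 ± 0.43, adjusted p = 0.00351). *Spz1*, a helix-loop-helix protein of the testis, was at 348, 279 and 310.5 CPM in RS and 16.4, 40.8 and 70.6 in SC (2.94 ± 0.49, adjusted p = 0.00464). *Creb3l4*, *Hsf2*, *Rfx3*, *Fhl5* and the X-linked *Taf7l* (4.36, and 3.12 without replicate 2) rose as well. *Crem*, a master activator of postmeiotic genes, was not called, with a log2 change of 0.50 and an adjusted p of 0.195, and neither was *Rfx2* (0.21, 0.606) or *Tbpl1* (0.11, 0.731).

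Of 14 genes for proteins that repackage the sperm nucleus, 8 were called higher, 0 lower and 6 not called (median 2.46), where 14.8% of all genes tested were called higher. *Prm1*, a protamine, was at 45.4, 142 and 32.9 CPM in RS and 3.63, 13.1 and 16.3 in SC (2.83 ± 0.74, adjusted p = 0.0248; 1.87 without replicate 2). *Tnp1*, a transition protein, was at 46.1, 72.4 and 25.7 CPM in RS and 1.69, 8.03 and 11.7 in SC (2.83 ± 0.71, adjusted p = 0.0219). Both varied widely within a stage, and the stages did not overlap, as in 2215 of the 2225 genes called higher. *Chd5*, a remodeller active during the histone exchange, was at 261, 104 and 176 CPM in RS and 13.1, 21.6 and 39 in SC (2.93 ± 0.47, adjusted p = 0.00434). *Prm2*, *Prm3*, *Tnp2*, the linker histone *Hils1* and *H1fnt* were the other calls. Without replicate 2 the list had 7 higher calls and 1 lower (median 1.87): *H1fnt* was no longer called (2.50, adjusted p = 0.0566), and *Rnf8*, a ubiquitin ligase of histones, was called lower (-1.69, from -1.21 and adjusted p = 0.0679 with all libraries). The testis linker histone *Hist1h1t* (0.33, adjusted p = 0.907), *Hist1h2ba* (-1.75, 0.574), *Hist1h2aa* (0.35, 0.919), *H2afb1* (1.66, 0.599) and *Psme4* (0.31, 0.463) were not called.

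Acrosome and gamete fusion genes gave 11 higher (42.3%) and 0 lower calls of 26 (median 0.78), beside 14.8% and 9.82% of all genes tested. *Acrv1*, an acrosomal vesicle protein, was at 122, 112 and 94.2 CPM in RS and 4.13, 7.73 and 20.1 in SC (3.43 ± 0.56, adjusted p = 0.00458). *Izumo1*, the sperm protein that binds the egg, was at 48.6, 26 and 39.3 CPM in RS and 1.95, 5.29 and 8.07 in SC (2.95 ± 0.54, adjusted p = 0.00654). *Spam1*, the sperm hyaluronidase, was at 166, 124 and 142 CPM in RS and 8.26, 20.2 and 36.4 in SC (2.80 ± 0.50, adjusted p = 0.00587). SC replicate 3 was the highest SC library in all 3 genes. The cylicins *Cylc1* and *Cylc2*, *Izumo2*, *Izumo3*, *Spaca1*, *Spaca3*, *Spaca4* and *Spaca7* were also higher, *Spaca3* not without replicate 2 (2.23 with it, and 2.17 with an adjusted p of 0.0574 without). Members that were not called included *Acr*, the acrosin gene (0.78, adjusted p = 0.0134 but under 2-fold), *Adam2* (-0.61, 0.0752), *Adam3* (0.26, 0.445) and *Crisp2* (-0.19, 0.565).

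Of 29 flagellar genes tested, 11 (37.9%) were called higher and 1 (3.45%) lower (median 0.39), beside 14.8% and 9.82% of all genes tested. The fibrous sheath and outer dense fibre genes *Akap3*, *Akap4*, *Akap14*, *Cabyr*, *Fscb*, *Ropn1*, *Odf1* and *Odf3* were higher by 2.79 to 3.37 on the log2 scale, while the outer dense fibre genes *Odf2* (0.35, adjusted p = 0.415) and *Odf4* (0.15, 0.756) were not called. *Akap4*, the X-linked main protein of the fibrous sheath, was at 289, 218 and 225 CPM in RS and 12.1, 32.7 and 65.5 in SC (2.79 ± 0.55, adjusted p = 0.00851). *Odf1* was at 214, 103 and 103 CPM in RS and 11.1, 11.1 and 22.1 in SC (3.31 ± 0.42, adjusted p = 0.00222). The tektins *Tekt2* (1.76) and *Tekt4* (2.05) and the dynein chain *Dnaic2* (1.55) were higher too. Central pair genes were not called, *Spag6* with a log2 change of -0.28 and an adjusted p of 0.401 and *Hydin* with -0.53 and 0.324. *Ccdc39*, which sets the axonemal repeat, was the member called lower, at 465, 352 and 656 CPM in RS and 911, 1269 and 1303 in SC (-1.17 ± 0.27, adjusted p = 0.0168).

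Head shaping genes and genes of the manchette, the microtubule skirt that moulds the nucleus, gave 9 higher and 2 lower calls of 18 (median 1.77). These shares were 50% and 11.1%, beside 14.8% and 9.82% of all genes tested. *Actl7a*, an actin-like protein of the sperm head, was at 124, 53.9 and 52.6 CPM in RS and 4.82, 7.69 and 12 in SC (3.29 ± 0.48, adjusted p = 0.00337). *Capza3*, a capping protein subunit, was at 65, 48.1 and 50.8 CPM in RS and 3.09, 7.7 and 9.78 in SC (3.06 ± 0.45, adjusted p = 0.00343). *Gopc*, a Golgi protein needed for the acrosome, was lower, at 52.2, 67.3 and 44.1 CPM in RS and 279, 300.3 and 277 in SC (-2.30 ± 0.23, adjusted p = 0.00101). *Lrguk*, a manchette protein, was lower too, at 102, 75.4 and 106 CPM in RS and 276, 333 and 350.1 in SC (-1.69 ± 0.21, adjusted p = 0.00193). RS libraries lay under every SC library in both, as in all 1477 genes called lower.

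Ion channels and exchangers of the sperm membrane gave 6 higher (40%) and 1 lower call (6.67%) of 15 (median 0.26), beside 14.8% and 9.82% of all genes tested. The pore subunits *Catsper1*, *Catsper3* and *Catsper4* rose by 3.10 to 3.39 on the log2 scale, while the pore subunit *Catsper2* was not called (0.26, adjusted p = 0.610). *Catsper1* was at 158, 81.7 and 118 CPM in RS and 6.58, 9.61 and 27.3 in SC (3.10 ± 0.55, adjusted p = 0.00604). *Kcnu1*, the sperm potassium channel, was at 152, 108 and 165 CPM in RS and 12.6, 21.4 and 36.4 in SC (2.66 ± 0.40, adjusted p = 0.00361), and its partner *Lrrc52* rose by 3.15. *Atp1a4* was also higher and the calcium pump *Atp2b4* lower (-1.19, adjusted p = 0.0398, and -0.86, under 2-fold, without replicate 2). The auxiliary subunits *Catsperb* (-0.68, adjusted p = 0.0957), *Catsperg1* (-0.85, 0.0618) and *Catsperg2* (-0.70, 0.152) were not called. Of 7 testis-specific serine kinases and their substrate, 5 (71.4%) were higher and 0 lower (median 3.07). *Tssk2* was at 85.5, 52.2 and 58.5 CPM in RS and 3.66, 9.42 and 13.4 in SC (2.95 ± 0.49, adjusted p = 0.00461). *Tssk5* and *Tssk6* were in the same direction at low levels (3.24 and 4.81) with adjusted p of 0.0947 and 0.106.

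Germ cells use their own isozymes for glycolysis and respiration, many of them from retrogenes. Of 16 such genes tested, 7 (43.75%) were called higher in RS and 3 (18.75%) lower (median 0.62), beside 14.8% and 9.82% of all genes tested. *Gapdhs*, the sperm glyceraldehyde phosphate dehydrogenase, was at 176, 133 and 109 CPM in RS and 7.73, 11.3 and 22.6 in SC (3.40 ± 0.43, adjusted p = 0.00227). *Aldoart1*, *Aldoart2*, *Acsbg2*, *Pgk2*, *Gykl1* and the lactate carrier *Slc16a7* were also higher. *Slc2a3*, a glucose transporter, was lower, at 549.8, 273 and 371 CPM in RS and 2905, 2430.2 and 2364 in SC (-2.62 ± 0.27, adjusted p = 0.00119). *Cyct*, the testis cytochrome c, was at 199, 129.6 and 217 CPM in RS and 749, 931 and 888 in SC (-2.17 ± 0.24, adjusted p = 0.00147), and *Pdha2* fell by 2.06 on the log2 scale. The somatic counterparts gave 0 calls of 14 by edgeR (median 1.46, and 0.78 with 1 higher call without replicate 2). Reads shared between a retrogene and its parent could have been counted for either, and strand use in counting is not given in the sources used here.

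The sex chromosomes are silenced in meiotic prophase and partly transcribed again in spermatids. X-linked genes took 0.714, 1.73 and 0.844% of the counts in the CM RS libraries and 0.0491, 0.0817 and 0.125% in CM SC. All RS libraries were above all SC libraries. The means were 1.10% ± 0.555 (SD, n = 3) and 0.0851% ± 0.0379 (SD, n = 3), a difference of 1.01 percentage points, with p = 0.1 in a two-sided exact permutation test, the smallest p that 3 against 3 allow. The difference was 0.763 points without the 10 X-linked genes with the most counts, and 0.694 without RS replicate 2. In WT the shares were 0.862 to 0.928% in RS and 0.0170 to 0.0184% in SC, and the 3 CM SC libraries were all above both WT SC libraries. So were the 3 CTCF HET SC libraries, at 0.0342 to 0.0814%, which overlapped CM SC, while BORIS KO SC was at 0.0171 to 0.0191%.

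**Figure D4:**
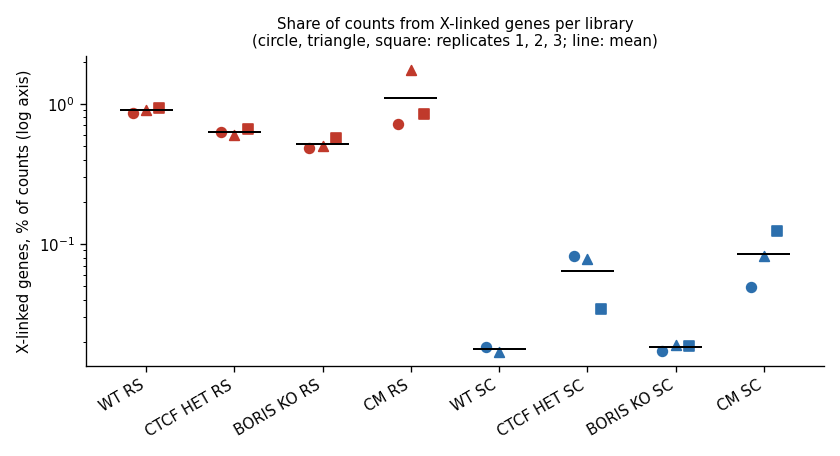
Share of counts from X-linked genes (percent, log axis) in each of the 23 purified libraries, with a line at each group mean. CM SC libraries lie at 0.0491 to 0.125%, above the WT SC libraries at 0.0170 and 0.0184% and overlapping the CTCF HET SC libraries at 0.0342 to 0.0814%, and CM RS replicate 2 has the highest RS value, 1.73%.

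Of 525 X-linked genes tested, 337 (64.2%) were called higher in RS and 1 lower, with a median log2 change of 3.60. The corresponding numbers without RS replicate 2 were 290, 1 and 3.09. On the autosomes 1786 of 14031 tested genes were called higher and 1430 lower (median 0.06). Of 8 Y-linked genes 6 (75%) were called higher, and 4 without RS replicate 2, beside 14.8% and 14% of all genes tested. *Eif2s3y*, a Y-linked translation factor, was at 76.7, 97.6 and 62.9 CPM in RS and 4.15, 4.99 and 12.4 in SC (3.54 ± 0.48, adjusted p = 0.00283). *Usp9y* was at 21.5, 36 and 36.4 CPM in RS and 3.36, 5.28 and 5.81 in SC (2.78 ± 0.39, adjusted p = 0.00291). In a list of 14 sex-linked genes, most of them multicopy or Y-linked, 11 were tested and 7 (63.6%) called higher, with a median of 3.54. Of all genes tested 14.8% were called higher. Without RS replicate 2 the list had 5 higher calls and a median of 3.22, *Uty* (4.14, and 3.62 without) and *Ddx3y* (5.48, and 3.78 without) being the calls lost. *Slxl1*, of a multicopy X family, rose to 3.41, 4.85 and 4.39 CPM from 0.322, 0.52 and 0.11 (adjusted p = 0.008). Copies in this family are nearly identical, so counts can be split among them. *Sly*, *Ssty1* and *Ube1y1* fell under the filter on low counts.

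Cohesin, which acts with CTCF at chromatin loops, gave 6 higher (46.2%) and 0 lower calls of 13 (median 0.67), beside 14.8% and 9.82% of all genes tested. *Smc3*, a core subunit, was at 323, 578 and 456 CPM in RS and 43.9, 68.8 and 95.8 in SC (2.79 ± 0.37, adjusted p = 0.00253). *Stag2*, an X-linked subunit of mitotic cohesin, was at 67.2, 104 and 74.4 CPM in RS and 4.03, 8.37 and 15.7 in SC (3.21 ± 0.51, adjusted p = 0.00423). *Smc1a*, also X-linked, was at 8.57, 83 and 22.9 CPM in RS and 0.918, 0.506 and 1.65 in SC (5.34 ± 0.96, adjusted p = 0.00607; 4.00 without replicate 2). *Rad21* rose by 1.30, with 0.81 and no call without replicate 2, and *Rec8* and *Rad21l* are given above. The meiotic *Smc1b* (0.67, adjusted p = 0.0627) and *Stag3* (0.09, 0.766) and the loader *Nipbl* (-0.53, 0.247) were not called. Without replicate 2 the list had 4 higher calls and 1 lower.

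Apoptosis genes gave 1 call of 16, a higher one (6.25%), beside 14.8% of all genes tested called higher. *Apaf1*, which assembles the apoptosome, was at 2.31, 19 and 3.73 CPM in RS and 1.34, 1.53 and 0.878 in SC (2.86 ± 0.86, adjusted p = 0.0412), and 0 members were called without replicate 2, when the list median moved from 0.87 to -0.25. Of 20 genes that the study singles out, on these and related samples and therefore not independent evidence of a direction, 18 were tested. Of these 5 (27.8%) were called higher and 2 (11.1%) lower, beside 14.8% and 9.82% of all genes tested. *Kit*, the stem cell factor receptor, was at 5.17, 42.8 and 13 CPM in RS and 0.682, 0.834 and 1.43 in SC (4.48 ± 0.85, adjusted p = 0.00745; 3.26 without replicate 2). In WT, *Kit* was higher in RS as well, by 2.80 on the log2 scale (adjusted p = 9.27e-05). The paper places a full-length transcript before meiosis and a truncated one after it, which gene totals do not separate. *Tssk3* rose by 3.07, *Prkar2a* by 2.53, *Mfi2* by 1.24 and *Syce2* by 1.08, while *Spo11* and *Cyp17a1* were lower. Without replicate 2, 3 were called higher and 2 lower, and *Prkar2a* (2.17, adjusted p = 0.0728) and *Syce2* (0.69, 0.0555) were not called. *Cstl1* was at 0 in all CM SC libraries and at 0.423, 0.306 and 0.294 CPM in RS, at least 8.17-fold higher when 3 counts per SC library are taken as the floor, and was not called. *Prss50* and *Gal3st1* were under the filter. *Fert2* (0.42, adjusted p = 0.158), *Fads2* (0.94, 0.337), *Ankrd52* (-0.12, 0.951), *Dbil5* (0.86, 0.0557) and *Tcp11* (0.20, 0.673) were not called.

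The next question was how far this step in the libraries labelled CM matched the step in the other genotypes. Of the genes called higher in CM RS, 94.1% were called higher in WT RS too, which is 44.6% of the 4700 (29.3% of 16052 tested) called there. For the genes called lower the shares were 90.3% and, of WT's 3690 (23%), 36.2%. Against BORIS KO, where 4646 genes (29.9%) were called higher and 3620 (23.3%) lower, 95.1% of the CM genes called higher and 94.1% of those called lower were shared. Against CTCF HET, with 3347 (22.9%) and 2294 (15.7%) calls, the shares were 73.8% and 76.4%. No gene was called in opposite directions in CM and any of the other 3 genotypes. These comparisons have no library in common. The slope of the CM change on the WT change over genes was 0.63, and genes called higher in WT had a median log2 change of 2.60 in CM and 3.70 in WT. Genes called lower in WT had medians of -1.18 and -1.82. Both sets were selected by their WT calls, which favours larger changes in WT, so these medians do not measure the difference between genotypes.

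The difference between the CM and WT changes was then tested gene by gene as an interaction. Of 17077 genes, 584 (3.42%) had a lower log2 change from SC to RS in the libraries labelled CM than in WT, and 13 (0.0761%) a higher one. Of the 584, 576 were called higher in WT RS and 537 also in CM RS, with median log2 changes of 5.94 in WT and 2.98 in CM. The 584 were selected for a lower change in CM, so the direction of this gap follows from the selection. Among listed members they included 6 of 13 round spermatid markers, 3 of 7 testis-specific serine kinases, 10 of 26 acrosomal genes (*Acrv1*, *Cylc1*, *Cylc2*, *Izumo1*, *Izumo2*, *Izumo3*, *Spaca1*, *Spaca3*, *Spaca7* and *Spam1*), 4 of 15 ion channels and exchangers, 3 of 11 sex-linked genes and 7 of 29 flagellar genes (*Akap3*, *Akap4*, *Akap14*, *Cabyr*, *Fscb*, *Odf1* and *Ropn1*). Of 14 genes that repackage the sperm nucleus, 21 piRNA and germ granule genes and 25 division regulators, 0 had a called difference. The sperm nucleus genes had a median difference of -1.57. *Tssk2* is 1 example: WT had 152, 165 and 155 CPM in RS and 2.96 and 3.06 in SC, and CM 85.5, 52.2 and 58.5 in RS and 3.66, 9.42 and 13.4 in SC. Its change was lower in CM by 2.82 ± 0.55 on the log2 scale (SE, adjusted p = 0.0217). *Rec8* had 116, 93.4 and 93 CPM in WT RS and 1.1 and 0.987 in WT SC, and its change was lower in CM by 3.08 ± 0.47 (adjusted p = 0.0170). In both genes the CM RS libraries were below the WT RS libraries and the CM SC libraries above the WT SC libraries. How many of the 584 share this form was not counted.

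**Figure D5:**
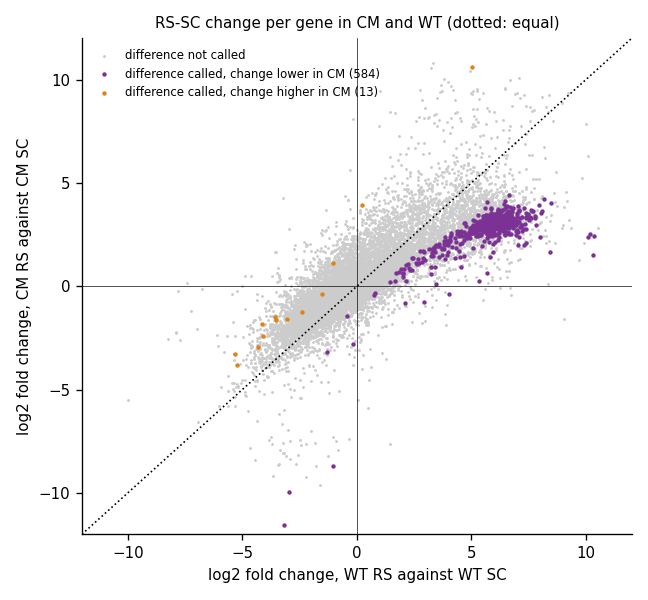
Log2 fold change of RS against SC in WT (x axis) and in CM (y axis), 1 point per gene, with a dotted line where they are equal. The 584 genes with a called lower change in CM (purple) lie near 6 in WT and 3 in CM, and 13 genes with a called higher change (orange) lie mostly among genes that were lower in RS. Both coloured sets were selected by the difference that the plot shows.

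The smallest p among the lower changes was that of *Kat2b*, a histone acetyltransferase. It was at 70.1, 67.5 and 69.9 CPM in WT RS and 0.849 and 0.774 in WT SC, and at 44.6, 35.5 and 51 in CM RS and 6.27, 5.46 and 10.8 in CM SC, a difference of -3.86 ± 0.40 (adjusted p = 0.00609). *9530008L14Rik* differed mainly in SC, at 39.9, 21.8 and 24.9 CPM there against 0.956 and 1.24 in WT SC, with 48.2, 18.5 and 31.7 in CM RS and 38.3, 40 and 46.6 in WT RS (-5.07 ± 0.56, adjusted p = 0.00609). *Gpd2*, the mitochondrial glycerol phosphate dehydrogenase, was at 158, 88.7 and 114 CPM in CM RS and 39.8, 45.1 and 59.5 in CM SC, against 247, 242 and 246 and 13.4 and 13.5 in WT (-2.87 ± 0.32, adjusted p = 0.00609). Of the 13 higher changes, 11 were genes called lower in WT RS, with median log2 changes of -3.52 in WT and -1.60 in CM. The 13 were likewise selected by this difference. *Trrap*, a scaffold of acetyltransferase complexes, was at 13.1, 10.9 and 13.2 CPM in CM RS and 121, 96.2 and 88.2 in CM SC, against 6.85, 6.18 and 5.76 and 129 and 139 in WT (1.37 ± 0.27, adjusted p = 0.0219). These calls depended on the 2 WT SC libraries: without either one, 0 genes were called in either direction, and without WT RS replicate 2 or 3 the numbers were 0 higher and 4 lower.

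Against BORIS KO, 0 of 16244 genes (0%) had a called difference by edgeR. At an unadjusted p under 0.05 there were 1415 higher and 1128 lower changes in CM, the smallest adjusted p was 0.189, and DESeq2 called 57 and 647. Without CM RS replicate 1, edgeR called 248 and 567, and without CM SC replicate 1, 60 and 564. Against CTCF HET, 8 of 16046 genes (0.0499%) had a lower change in CM and 0 (0%) a higher one by edgeR, with 986 higher and 1597 lower at an unadjusted p under 0.05 and 149 and 234 by DESeq2. Without CM RS replicate 1 the edgeR calls were 443 and 565. *Spo11* was 1 of the 8: it was at 60.9, 59.7 and 61.8 CPM in CTCF HET RS and 158, 147 and 154 in CTCF HET SC, and its change was lower in CM by 1.78 ± 0.22 (adjusted p = 0.0209). It was lower in CM than in WT by 1.88 ± 0.28 as well (adjusted p = 0.0170). Against BORIS KO, where *Spo11* was at 12.4, 12.1 and 9.71 CPM in RS and 111, 123 and 116 in SC, the difference was 0.23 (adjusted p = 0.727).

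Finally the promoters of the called genes were described. Peaks of germ cell ChIP-seq within 1 kb of an annotated start were counted, without replicate error. A WT CTCF peak lay there in 25.7% of the genes called higher, 38.9% of those called lower and 34.4% of all tested genes. The CM CTCF peaks gave 9.63, 11.3 and 11.7%, and WT BORIS peaks 15.3, 20.9 and 18.7%. CM Pol2 peaks lay at 66.7, 83.0 and 67.5% and CM H3K4me3 peaks at 79.6, 89.9 and 79.5%. Genes lower in RS had thus the larger share with Pol2 and H3K4me3, in preparations that mix the germ cell stages.

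The activator CREM binds the cyclic AMP response element TGACGTCA in many spermatid promoters. Promoter windows of RefSeq (GRCm38.p6, 250 bases before to 50 after each start) were searched for these 8 letters, which read the same on both strands. A match was found in 3.74% of the genes called higher, 3.42% of those called lower and 3.42% of the 11992 tested genes with a window. Counted by window and not by gene, it was in 1.79% of all 32851 windows, which is no background for the gene shares. The 4 list members that were called in CM and hold the element are shown here with the match in capitals, because they lie on both sides of the comparison. *Ccin*, calicin of the sperm head (3.16), *Izumo1* (2.95) and *Spag4*, a protein of the nuclear envelope and tail (2.93), were higher in RS by log2 change, and *Lrguk* was lower (-1.69). The match starts 50, 96, 37 and 26 bases before the transcript start. It is a description of these letters and not evidence of binding.
Ccin (chr4:43983424-43983491, plus strand): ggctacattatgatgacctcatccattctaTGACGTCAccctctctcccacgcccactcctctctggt
Izumo1 (chr7:45621685-45621752, plus strand): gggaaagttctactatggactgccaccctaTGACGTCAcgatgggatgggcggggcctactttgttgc
Spag4 (chr2:156065146-156065212, plus strand): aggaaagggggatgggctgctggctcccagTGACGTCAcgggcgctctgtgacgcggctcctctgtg
Lrguk (chr6:34029392-34029447, plus strand): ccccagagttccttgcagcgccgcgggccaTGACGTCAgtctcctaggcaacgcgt
The TATA box TATAAA, searched on the strand of the gene, was found in a window of 5.59% of the genes called higher, 5.73% of those called lower and 5.75% of tested genes. Counted by window and not by gene, it was in 8.32% of all 32851 windows.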

How the data were processed

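For the sorted RS and SC, the authors deposited 1 table of unnormalized read counts over 23284 gene symbols, and nothing was realigned. Reads were aligned to mm9 with STAR, and the counting tool, annotation and use of strand are not given in the sources used here. Columns were matched to samples by title. Genes were filtered with edgeR's filterByExpr (edgeR 4.0.16), scaled by TMM and tested with the quasi-likelihood F test with robust estimation over the 6 CM libraries, with Benjamini-Hochberg adjustment over all tested genes. A gene was called at an adjusted p under 0.05 and a fold change over 2. Errors beside log2 changes are standard errors, |log2 change| divided by the square root of F. The study used DESeq2 at an adjusted p under 0.001, at which edgeR called 2 and 118 genes here. Differences between genotypes were interaction terms in a fit of the 4 groups concerned. On data simulated from these libraries, with a log2 change of 2 in 200 genes, this test found 39% in CM, with 1 false call, and DESeq2 1.42.0 found 66%, with 61 false calls. For the difference from WT the test found 42.5%, with 4 false calls.

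The members and the gene lists were chosen with earlier results of these data known. Named genes are *Ctcf*, *Ctcfl* and *Rltpr*, the 10 largest changes in each direction at a mean of at least 10 CPM, the 3 smallest adjusted p in each direction, the 5 smallest p of each interaction in each direction, the most abundant members of each list and those called against its majority, and the genes named by the study. Other list members named in the text were chosen after their values were seen. For ChIP-seq the authors deposited peak positions with a height, a signal of unstated normalization, for CTCF and BORIS and a score for Pol2 and H3K4me3. Only the positions were used, with GENCODE vM1 starts in mm9, so the depth behind them is unknown. Whole testis counts were not used here.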

Additional observations from a re-analysis of the deposited data

Results flagged for a closer look

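The results here are differences of the RS-SC change between genotypes, tested as interaction terms with edgeR. Against WT, 13 genes had a higher and 584 a lower signed log2 change in the libraries labelled CM. A higher signed change can be a smaller fall: 11 of the 13 were called lower in WT RS. The 5 higher changes with the smallest p were those of Zcchc14 (1.89), Trrap (1.37), Tomm34 (2.03), E4f1 (2.12) and Pcbp1 (1.39), given as the CM change minus the WT change on the log2 scale. Tomm34 encodes a cochaperone of mitochondrial import and was at 7.40, 15.2 and 7.61 CPM in CM RS and 129.6, 90.4 and 91.3 in CM SC, against 4.02, 3.35 and 3.83 in WT RS and 156 and 160.5 in WT SC. For the lower changes the values were -3.86 for Kat2b, -5.07 for 9530008L14Rik, -4.38 for Zfp72, -2.87 for Gpd2 and -3.33 for Tbc1d9. In Zfp72, a zinc finger gene, the CM SC libraries stood at 10.6, 9.16 and 13.3 CPM and the WT SC libraries at 0.902 and 0.720, while CM RS was at 30.5, 17.2 and 35.7 and WT RS at 31.0, 45.3 and 50.7.

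Against CTCF HET, 8 genes had a lower signed log2 change in CM. Of these, 7 were called higher in RS in both genotypes. The other, Spo11, was called lower in both and fell further in CM. The fitted differences were -8.90 for Cgn, -1.78 for Spo11, -8.96 for Klf2, -8.69 for Prps1 and -6.64 for Prame. Cgn, Klf2 and Prps1 were at 0 in all CTCF HET SC libraries and Prame had 4 counts there in all, so the 4 large values depend on the prior count of the fit and are no bounds. With 3 counts per library as the floor, Cgn was at least 137-fold, Klf2 at least 229-fold and Prps1 at least 193-fold higher in CTCF HET RS than in CTCF HET SC. In CM the same genes were low but not at 0 in SC, with Klf2 at 0.496, 0.656 and 0.470 CPM and at 11.6, 6.99 and 3.49 in RS. The CTCF HET SC libraries also had 71, 128 and 60 genes at 0 that held at least 50 counts in each other library of their group, a property of these libraries whose part in the difference was not tested.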

How the results depend on the processing

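The main CM counts (2225 higher, 1477 lower) stayed within 1.5 times under DESeq2, RLE scaling, library size alone, no low-count filter, genes counted in all 6 libraries and no fold threshold. They were 3813 and 2655 with all 23 libraries in one fit and 2 and 118 at an adjusted p under 0.001. Leaving out 1 library gave 1399 to 2192 higher and 968 to 2206 lower. Library size alone moved the median of all genes from 0.13 to 0.25.

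The replicate block gave 1702 higher and 1434 lower. Same-numbered CM libraries correlated in their deviations at 0.211, 0.0572 and 0.105, so the numbers were not read as pairing the libraries, although each CM RS library correlated best with its own number. Under the block the differences from WT were 0 higher and 3 lower, from CTCF HET 0 lower and from BORIS KO 0 and 0.

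The differences from WT (13 higher, 584 lower) were 241 higher in one fit of all 23 libraries, 96 higher and 1252 lower with DESeq2, and 0 and 0 at an adjusted p under 0.001. Leaving out 1 library gave 0 to 154 higher and 0 to 901 lower. From BORIS KO (0 and 0) they were 4 and 103 in one fit, 57 and 647 with DESeq2, and 0 to 248 and 0 to 567 leaving out 1 library. From CTCF HET (0 and 8) they were 258 and 1351 in one fit, 149 and 234 with DESeq2, 2 higher with library size alone, 1 higher without the filter, 0 lower at an adjusted p under 0.001, and 0 to 443 and 0 to 565 leaving out 1 library. The fits that leave out a WT, BORIS KO or CTCF HET library, or keep the genes counted in all 6 CM libraries, were chosen after seeing the data. The cause of these moves was not tested.

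Of the log2 changes of named genes in CM, 1406 values kept direction and call, 64 lost and 10 gained the call, and 28 changed sign, all in genes not called. With library size alone these were Ankrd52 (0.14), Hook1 (0.0742) and Mael (0.0334). Ddx4 was at -0.0638 in one fit of all libraries, -0.0119 without the filter and -0.0139 with the replicate block, and Hook1 at 0.000180 among genes counted in all 6. Over the fits that leave out 1 CM library, these genes ran as follows: Ankrd52 -1.84 to 0.39, Ctcf -0.28 to 1.29, Ddx4 -0.16 to 0.17, Fads2 -0.28 to 1.26, Hook1 -0.20 to 0.11, Mael -0.42 to 0.23, Slc16a1 -0.66 to 1.56, Spag17 -0.53 to 0.14, Stag3 -0.0503 to 0.20, Syce1 -0.36 to 0.0451, Tbpl1 -0.0334 to 0.26, Tcp11 -0.17 to 0.44, Tdrd6 -0.60 to 0.0266 and Wapal -0.0099 to 0.27. The 6 libraries held at least 63503144 counts each, and the part of depth in the precision was not tested. Without 1 CM library, 6 to 13 of the named genes lost their call, the most without CM SC replicate 1.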
